A study of Homo sapiens with 6 samples.

Results

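The tubulin genes described here are 10 of the 57150 genes in a table of RNA-seq expression values from K562 cells, a human chronic myeloid leukemia line with erythroid features. They are the alpha-tubulin genes TUBA1A, TUBA1B, TUBA1C and TUBA4A, the beta-tubulin genes TUBB, TUBB2A, TUBB2B, TUBB3 and TUBB6, and the gamma-tubulin gene TUBG1. Each was found in the table by its symbol, and all 10 were present. TUBB3 has 2 rows, of which the one with the higher mean level was kept. The study asked how the poly(C)-binding proteins αCP1 and αCP2, encoded by PCBP1 and PCBP2, act on RNA in these cells. Its KD group is 3 pools transfected with siRNAs against both αCP1 and αCP2, its CTRL group is 3 pools transfected with control siRNAs, and RNA was taken 72 h after transfection in both. Both groups are the same line. The paper describes 2 of the control siRNAs as targeting an unrelated mRNA, GLD-2, and the other as non-targeting. It also states that part of the samples came from an earlier study of the authors and that a control and an αCP1/2 siRNA sample were added. The labels name no other allele or agent, and siRNA transfection is a transient depletion, not a knockout.

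Tubulin is the subunit of microtubules. An alpha and a beta chain form a dimer, dimers polymerize into the wall of the tube, and gamma-tubulin sits in a ring complex that seeds new microtubules. Several genes encode each chain, and the encoded isotypes are most different at their acidic C-terminal tails, where many modifying enzymes and motor proteins act. Cells also adjust alpha- and beta-tubulin mRNA to the amount of free dimer: the factor TTC5 recognizes the first residues of a nascent tubulin chain on the ribosome and brings about decay of the mRNA being translated. TUBB3 is best known as the neuronal beta isotype, while TUBA1B, TUBA1C and TUBB are abundant in dividing cells.

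The table gives 1 FPKM (fragments per kilobase of transcript, scaled to sequencing depth) and 1 estimated count per gene and group, so the 3 libraries of a group cannot be separated. The spread between libraries is therefore unknown, and no test between KD and CTRL was made here. A difference is given as the log2 ratio of FPKM + 1, KD over CTRL, and a value of at least 1 or at most -1 is called past the limit. A second scale, the ratio of the gene's shares of all counts in the 2 columns, is given with its exact binomial 95% interval, which covers counting error only. The columns summed to 13699340 estimated counts in KD and 11680567 in CTRL. On the share scale the median of all genes whose FPKM averaged 1 or more was -0.21, against 0.01 on the FPKM scale, so a share ratio is also given relative to -0.21 where that changes its sign or its call.

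The column labels rest on the submitters' names. The FPKM of PCBP1 was 184 under the label KD and 188 under the label CTRL, a log2 ratio of -0.03. That of PCBP2 was 531 and 342, a log2 ratio of 0.63, so this target was higher under the label KD. Neither target mRNA was at or below -1. The paper reports the depletion at both the mRNA and the protein level, from assays that were not analysed here. KD and CTRL here mean the columns so labelled. The labelled cell type was also checked. Of 15 erythroid markers, 9 were under an FPKM of 1 in both columns and 7, among them GATA1, TAL1 and KLF1, were listed at 0 in both. The list summed to an FPKM of 170 in KD and 45.4 in CTRL, of which the globin gene HBE1 made up 153 and 35.4. The 8 epithelial markers summed to 4380 and 3200, nearly all from the keratins KRT8 (1505 and 819), KRT18 (2309 and 1748) and KRT7 (540 and 604). Of the other 5, CDH2 and CLDN4 lay between 10.3 and 15.05, EPCAM was at 3.94 and 3.26, CDH1 was under 1 in both columns and KRT19 was at 0 in both. The part of these cell type markers in the tubulin values was not tested, and in bulk RNA a different share of cells and a different amount of RNA per cell cannot be told apart.

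The first bases of the coding sequences show the relatedness of the family and, in the alpha and beta genes, the codons whose product TTC5 reads. The first 30 nt are given from GRCh37 with the GENCODE release 44 annotation, 5′ to 3′, with the first 12 nt, the first 4 codons, in capitals. In the alpha-tubulin genes the first 3 nt lie in a separate exon, so each has 2 blocks.
TUBA1A (chr12:49582760-49582762 and chr12:49580590-49580616, minus strand): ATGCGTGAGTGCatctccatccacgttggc
TUBA1B (chr12:49525081-49525083 and chr12:49523479-49523505, minus strand): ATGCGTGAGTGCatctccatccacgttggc
TUBA1C (chr12:49658965-49658967 and chr12:49663248-49663274, plus strand): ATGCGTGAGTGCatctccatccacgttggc
TUBA4A (chr2:220118578-220118580 and chr2:220116926-220116952, minus strand): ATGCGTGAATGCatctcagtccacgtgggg
TUBB (chr6:30688284-30688313, plus strand): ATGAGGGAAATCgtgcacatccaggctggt
TUBB2A (chr6:3157668-3157697, minus strand): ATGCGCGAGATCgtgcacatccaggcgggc
TUBB2B (chr6:3227748-3227777, minus strand): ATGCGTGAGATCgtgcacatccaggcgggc
TUBB3 (chr16:89989810-89989839, plus strand): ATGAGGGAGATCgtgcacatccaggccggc
TUBB6 (chr18:12308292-12308321, plus strand): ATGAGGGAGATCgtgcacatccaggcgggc
TUBG1 (chr17:40761756-40761785, plus strand): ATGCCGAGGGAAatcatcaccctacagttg

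TUBA1A, TUBA1B and TUBA1C were identical over these 30 nt, and TUBA4A differed from TUBA1B at 5 of them, 1 of which (G9A, counted from 1 at the A of the start codon, with the TUBA1B base first) is in the first 12 nt. Within the beta class, TUBB3 and TUBB6 each differed from TUBB at 3 positions, sharing A9G and, further on, T30C, and TUBB2A and TUBB2B each at 5. TUBG1 is further from both classes and was not aligned base by base.

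The 3′ ends of the coding sequences encode the C-terminal tails. They differed between TUBB and TUBB3, while those of TUBA1A and TUBA1B were identical over the last 60 nt and the stop codon. They are given for the main beta gene and for TUBB3, the beta gene with the largest ratio, as the last 60 nt in lower case and the stop codon in capitals.
TUBB (chr6:30692112-30692174, plus strand): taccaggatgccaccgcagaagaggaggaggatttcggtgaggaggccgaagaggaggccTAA
TUBB3 (chr16:90002150-90002212, plus strand): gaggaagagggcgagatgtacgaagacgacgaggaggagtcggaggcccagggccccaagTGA

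Over whole coding sequences, identity was 97.2% between TUBA1A and TUBA1B, 95.9% between TUBA1A and TUBA1C and 96.8% between TUBA1B and TUBA1C, and the longest identical run of the last pair was 326 nt. TUBA4A was further away, with 84.4% identity to TUBA1A. TUBB2A and TUBB2B were the closest pair of all, with 98.2% identity and an identical run of 725 nt. TUBB was 81.8% identical to TUBB3 and 84.4% to TUBB4B, the other abundant beta-tubulin gene of the table.

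Because reads were 100 nt long, these identities decide how well a read can be assigned. Each window of 100 nt of a gene's canonical transcript was searched for in the transcripts of other genes and elsewhere in the genome. With at most 3 mismatches allowed, 79.9% of the windows of TUBA1B, 68.5% of TUBA1A and 40.3% of TUBA1C had a second match. An identical second copy existed for 37.2%, 21.2% and 12.3% of all windows of these genes, in that order. TUBB2A (72.3%, and 55.6% identical) and TUBB2B (56.6%, and 48.5% identical) stood as high. TUBB shared 50.4% of its windows, chiefly with the pseudogene TUBBP1 (44.7%), and 5.42% of all its windows had an identical copy. TUBG1 shared 47.5%, nearly all with its paralog TUBG2. TUBA4A (13.8%), TUBB3 (9.77%) and TUBB6 (1.63%) shared the fewest windows. Genes that overlap a member's own locus are left out of these values. They covered 92.5% of the windows of TUBB3, through the readthrough locus that includes it, and 65.4% of those of TUBA1B. For TUBA4A it was 40.9%, for TUBA1C 19.8%, for TUBB 18.2% and for each other member 0.32% or less. In the 3′ UTRs no window was shared for any member but TUBB, where 21.1% were. How the authors' counting divided reads with several matches is not given in the sources used here. The levels of TUBA1A, TUBA1B, TUBA1C, TUBB, TUBB2A, TUBB2B and TUBG1 are uncertain to that extent. For TUBB3 and TUBA4A the same holds for reads that an overlapping locus could also hold. The deposited estimated counts were not whole within 0.01 for TUBA1A, TUBA1B, TUBA1C, TUBA4A, TUBB3 and TUBB6 in at least 1 column, and were whole for the other 4 members.

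**Figure D1:**
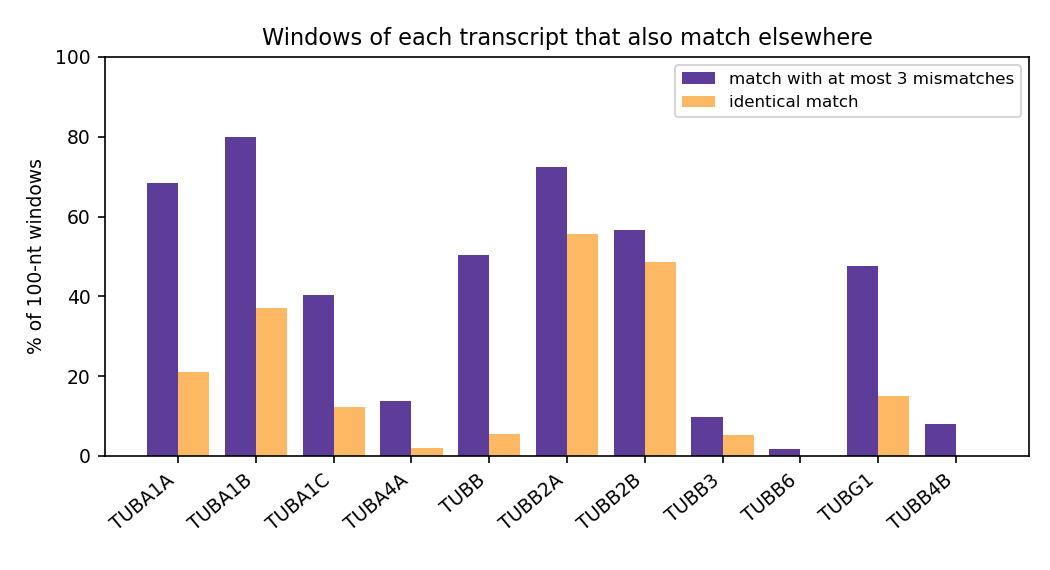
Percent of the 100-nt windows of each canonical transcript that also match another gene's transcript or another place in the genome (y axis), for the 10 members and TUBB4B (x axis), with at most 3 mismatches (purple bars) or identically (yellow bars). TUBA1B stands highest at 79.9%, while TUBB6 is at 1.63% and TUBB3 at 9.77%.

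All 4 alpha-tubulin genes were higher in KD than in CTRL, with a median log2 ratio of 0.87. TUBB3 was the 1 beta-tubulin gene that was much higher, while TUBB, TUBB6 and TUBG1 lay within 0.15 of 0. Of the 10 members, 9 passed the filter (an FPKM of 1 or more on average over both columns), and 3 of them (TUBB3, TUBA1A and TUBA1C) were higher by a log2 ratio of at least 1, where 8.51% of the 13741 genes that passed were. No member was at or below -1, where 3.27% of genes were. The median of the 9 was 0.61, with 8 above 0 and 1 below, and that of all genes was 0.01. On count shares TUBB3 alone was past the limit, and relative to the median of all genes, a scale added after seeing the data, TUBB3 and TUBA1A were. With the GC and length trend taken out it was TUBA1A and TUBA1C. Over all genes 1169 were higher and 450 lower by the limit, against 951 and 1351 on count shares, 1469 and 806 on count shares relative to the median, and 641 and 440 with the trend taken out.

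**Figure D2:**
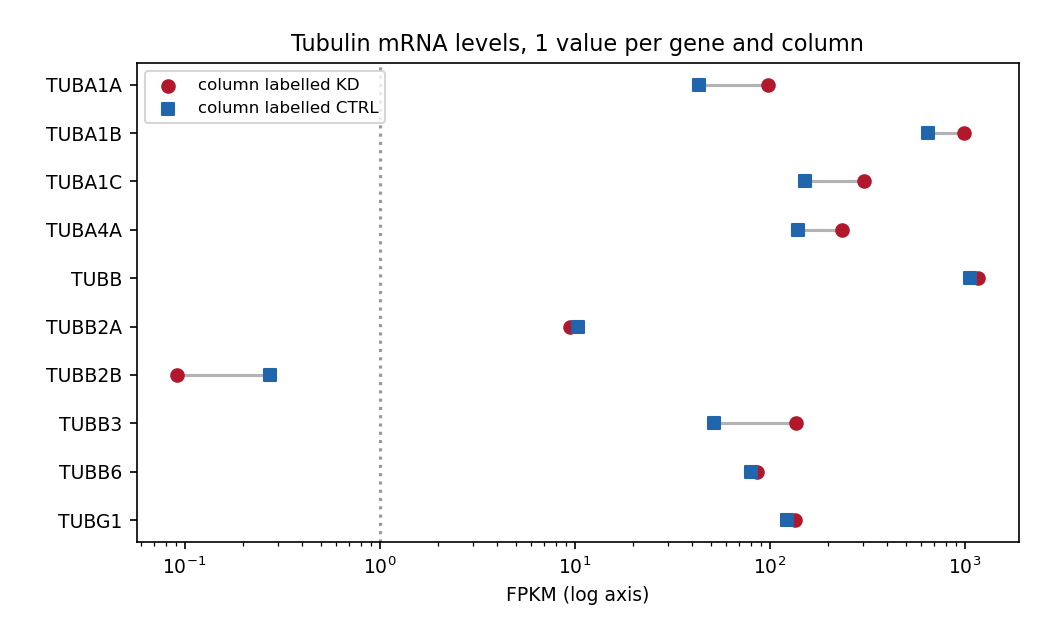
FPKM on a log axis (x) for the 10 tubulin genes (y), with red circles for KD, blue squares for CTRL and a dotted line at an FPKM of 1. Each point is 1 value for a whole group, so there are no error bars; TUBB and TUBA1B lead in both columns, and only TUBB2B lies under the line.

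TUBA1B, the gene behind most alpha-tubulin mRNA of these cells (ENSG00000123416; chromosome 12, 49521565 to 49525178), had an FPKM of 994 in KD and 650.4 in CTRL, from 18076 and 11817 estimated counts. KD was the higher column, 1.53-fold. The log2 ratio was 0.61, and the share ratio was 0.38, with a 95% interval of 0.35 to 0.42. Of all genes, 18.7% had a ratio as high.

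TUBA1C, a second isotype gene of dividing cells (ENSG00000167553; chromosome 12, 49658865 to 49668383), stood at 307 in KD and 152 in CTRL, from 5616 and 2874 counts. Its level was 2.02-fold higher in KD, a log2 ratio of 1.01 that 8.41% of genes reached. The share ratio was 0.74, with an interval of 0.67 to 0.80, or 0.94 relative to the median of all genes, and with FPKM ratios centred on their median it was 0.99, so the call is lost on these 3 scales.

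TUBA1A, the isotype most associated with neurons and with brain malformations when mutated (ENSG00000167552; chromosome 12, 49578578 to 49582863), had an FPKM of 97.9 in KD and 43.3 in CTRL, from 1821 and 823 counts. It was 2.26-fold higher in KD, with a log2 ratio of 1.16, and 6.13% of genes were as high. The share ratio was 0.92, with an interval from 0.80 to 1.04 that spans the limit, or 1.12 relative to the median of all genes. Of its windows, 58.5% matched TUBA1C and 55.7% matched TUBA1B. The 3 genes summed to an FPKM of 1398 in KD and 846 in CTRL, a log2 ratio of 0.72. The share ratio of their summed counts, which does not depend on how reads were divided among the 3, was 0.49, with an interval of 0.46 to 0.52.

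TUBA4A, an alpha isotype gene outside the TUBA1 cluster (ENSG00000127824; chromosome 2, 220114432 to 220118640), had an FPKM of 236 in KD and 141 in CTRL, from 3839 and 2703 counts. It was 1.68-fold higher in KD, a log2 ratio of 0.74, which 14.5% of genes reached. The share ratio was lower, at 0.28 with an interval of 0.20 to 0.35. The count behind each unit of FPKM gave a log2 ratio of -0.24 between the columns, and the 5th and 95th percentiles of all genes were -0.35 and 0.35. FPKM is divided by a transcript length that depends on the isoforms assigned, so counts and FPKM of a gene need not move together.

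TUBB, the main beta-tubulin gene (ENSG00000196230; chromosome 6, 30688129 to 30693199), had the highest level of all members, with an FPKM of 1178 in KD and 1067 in CTRL from 37089 and 33581 counts. The columns differed 1.10-fold. The log2 ratio was 0.14, which 41.7% of genes reached, and the share ratio was -0.09, with an interval of -0.11 to -0.07, or 0.12 relative to the median of all genes. Only the share ratio before centring was below 0.

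TUBB3, class III beta-tubulin (ENSG00000258947; chromosome 16, 89989750 to 90002505), stood at 137 in KD and 52.0 in CTRL, from 2755 and 1042 counts. It was 2.64-fold higher in KD, with a log2 ratio of 1.38, the largest of the members, and 3.83% of genes were as high. The share ratio was 1.17, with an interval of 1.07 to 1.28. Neuronal markers were near 0 beside it: of 12 on the list, 11 were under an FPKM of 1 in both columns and 6 were at 0 in both, and the list summed to 2.60 in KD and 2.17 in CTRL. With a GC content of 62.2%, TUBB3 lies in the richest of 10 equal bins of GC content, where the median ratio was 0.73, 34.3% of genes were at or over 1 and 15.6% were as high as TUBB3. With the GC and length trend taken out its ratio was 0.82.

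TUBB6, a beta isotype of many non-neuronal tissues (ENSG00000176014; chromosome 18, 12308240 to 12326615), had an FPKM of 86.4 in KD and 80.0 in CTRL, from 1793 and 1627 counts. The log2 ratio was 0.11 and the share ratio -0.09, with an interval of -0.19 to 0.01, or 0.12 relative to the median of all genes. With the GC trend removed the ratio was -0.18, so its sign changed on that scale and on count shares before centring.

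TUBB2A (ENSG00000137267; chromosome 6, 3153900 to 3157778) was a minor beta gene, with an FPKM of 9.46 in KD and 10.4 in CTRL from 158 and 185 counts. It was the 1 member that passed the filter and was lower in KD, with a log2 ratio of -0.13 and a share ratio of -0.46, with an interval of -0.77 to -0.14. Its near copy TUBB2B (ENSG00000137285; chromosome 6, 3224511 to 3227887) had an FPKM of 0.091 in KD and 0.27 in CTRL, from 2 and 6 counts, and did not pass the filter. The interval of its share ratio, -5.16 to 0.67, held 0, and no difference was detectable at this depth. Summed over the pair, FPKM was 9.55 and 10.7.

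TUBG1, the gamma-tubulin of the nucleating ring (ENSG00000131462; chromosome 17, 40761701 to 40767256), had an FPKM of 136 in KD and 123 in CTRL, from 2428 and 2181 counts. Its log2 ratio was 0.14 and its share ratio -0.08, with an interval of -0.16 to 0.01, or 0.13 relative to the median of all genes. With the GC trend removed the ratio was -0.18, a change of sign like that of TUBB6.

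**Figure D3:**
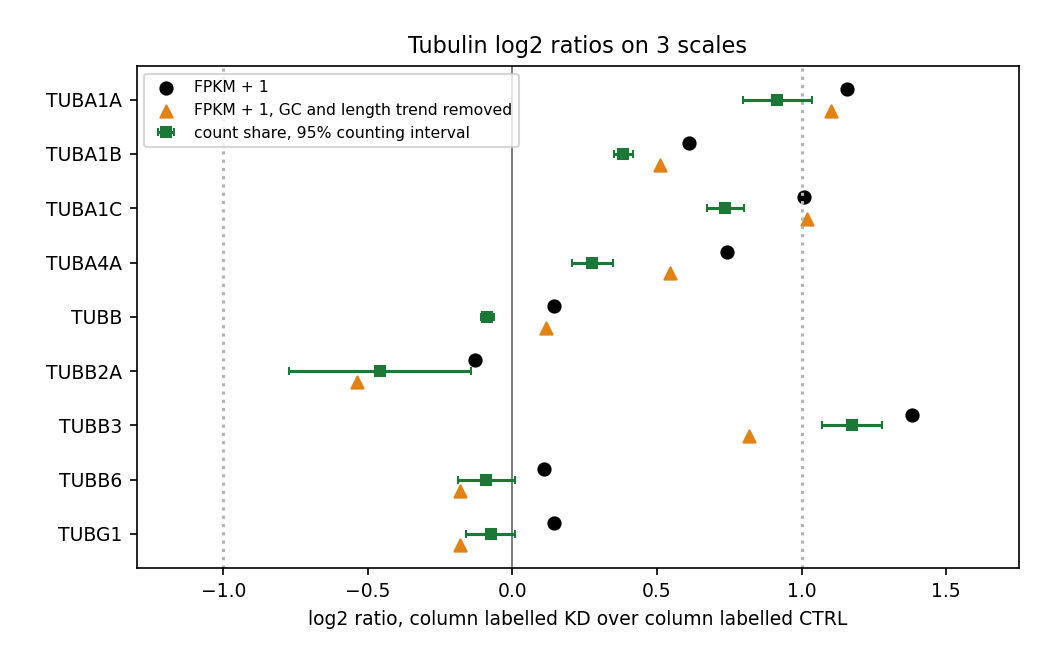
Log2 ratio, KD over CTRL (x axis), for the 9 tubulin genes that passed the filter (y axis), from FPKM + 1 (black circles), from count shares with the exact 95% counting interval (green squares) and from FPKM + 1 with the GC and length trend removed (orange triangles). Dotted lines mark -1 and 1; the 4 alpha genes and TUBB3 lie right of 0 on all 3 scales, and TUBB2A lies left of it.

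Ordered by FPKM in CTRL, the members ran from TUBB through TUBA1B, TUBA1C, TUBA4A, TUBG1, TUBB6, TUBB3, TUBA1A and TUBB2A to TUBB2B. In KD the leading 4 were in the same order and TUBB3 came next, directly before TUBG1 (137 against 136), followed by TUBA1A, TUBB6, TUBB2A and TUBB2B. With 1 value per column there is no spread by which neighbours in either order could be told apart.

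Of the other tubulin genes in the table, 4 passed the filter, with ratios between -0.27 and 0.16. TUBB4B, the other major beta gene of dividing cells (ENSG00000188229), had an FPKM of 866 in KD and 772 in CTRL, a log2 ratio of 0.16. Its share ratio was -0.06, with an interval of -0.09 to -0.03, or 0.15 relative to the median of all genes. TUBG2, the second gamma gene, stood at 10.8 and 13.2 (-0.27). The centriolar delta- and epsilon-tubulin genes TUBD1 and TUBE1 stood at 12.2 and 13.9 (-0.17) and at 6.06 and 6.62 (-0.11). None of these 4 was past 1 in either direction. The other 8 of the 12 in the table (TUBA3C, TUBA3D, TUBA3E, TUBA8, TUBAL3, TUBB1, TUBB4A and TUBB8) were under an FPKM of 1 in both columns, and TUBA3C, TUBAL3 and TUBB8 were listed at 0 in both. Of 38 rows of tubulin pseudogenes, 30 were at 0 in both columns, and the highest FPKM was 4.78.

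Summed over its 9 genes, alpha-tubulin reached an FPKM of 1634 in KD and 987 in CTRL, which is 1.66-fold higher in KD. Beta-tubulin, also over 9 genes, reached 2277 and 1983, 1.15-fold higher. The alpha sum took 0.214% of all counts in KD and 0.156% in CTRL, a share ratio of 0.46 with an interval of 0.43 to 0.48. The beta sum took 0.421% and 0.433%, a ratio of -0.04 with an interval of -0.06 to -0.02. The median share ratio of the genes that passed the filter was -0.21, and the beta sum lay above it. The ratio of alpha to beta FPKM was 0.72 in KD and 0.50 in CTRL, and from counts per kilobase of annotated transcript it was 0.58 and 0.42. On both scales alpha was thus closer to beta in KD.

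Within the alpha sum, TUBA1B made up 60.8% in KD and 65.9% in CTRL. TUBA1C made up 18.8% and 15.4%, TUBA4A 14.4% and 14.3%, and TUBA1A 5.99% and 4.39%. Within the beta sum, TUBB made up 51.7% in KD and 53.8% in CTRL and TUBB4B 38.0% and 39.0%. The share of TUBB3 was 6.02% in KD and 2.62% in CTRL, so that it passed TUBB6, which had 3.79% and 4.04%. TUBB2A stayed under 1% in both columns.

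**Figure D4:**
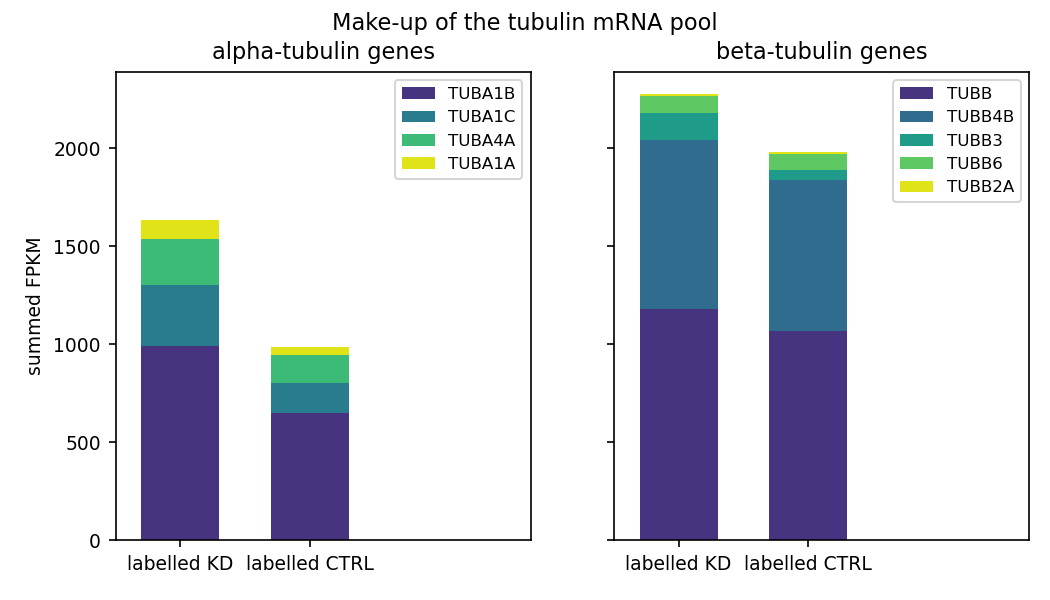
Summed FPKM (y axis, from 0) of the alpha-tubulin genes (left) and the beta-tubulin genes with an FPKM over 1 (right) in KD and in CTRL, stacked by gene. The alpha bar is 1634 in KD and 987 in CTRL and the beta bar 2277 and 1983; in the beta bars the TUBB3 layer is visibly thicker in KD.

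GC content moved with the ratio over all genes. Across the 13120 genes with an annotated transcript, Spearman's rho between GC content and log2 ratio was 0.46, a description across genes of the same 2 columns. In 10 bins of equal size, the median ratio was -0.29 in the bin lowest in GC and 0.73 in the highest. The alpha genes lie near the middle of the range, with 50.2% GC in TUBA1C, 51.3% in TUBA1A, 52.4% in TUBA1B and 55.1% in TUBA4A. In the bin that holds TUBA1A and TUBA1C, 5.26% of genes were at or over 1, and 3.73% and 5.18% were as high as these genes. With the trend removed, the 4 alpha genes had ratios of 1.10 for TUBA1A, 1.02 for TUBA1C, 0.55 for TUBA4A and 0.51 for TUBA1B. The beta genes TUBB and TUBB2A had 0.12 and -0.54. What the trend in GC content comes from was not tested.

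**Figure D5:**
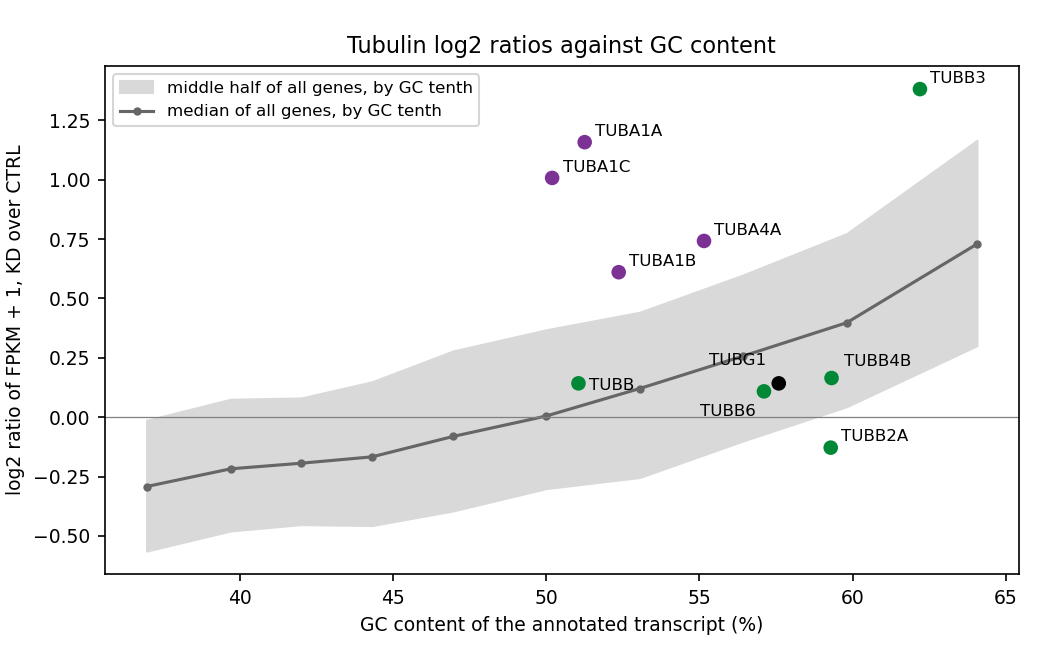
Log2 ratio of FPKM + 1, KD over CTRL (y axis), against the GC content of the annotated transcript (x axis) for the 9 members that passed the filter and TUBB4B, with alpha genes in purple, beta genes in green and TUBG1 in black. The grey line and band are the median and the interquartile range of all genes, in 10 bins of GC content with equal numbers of genes; TUBA1A and TUBA1C stand well above the band, and TUBB, TUBB6 and TUBG1 lie inside it.

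The genes that fold, nucleate, modify and bind tubulin had list medians between -0.17 and 0.25. Of the 8 folding cofactors, which assemble the dimer, 5 were above 0 and 3 below, with a median of 0.18. ARL2, the small GTPase of that pathway, was the 1 cofactor past 1, with an FPKM of 122 in KD and 58.0 in CTRL and a log2 ratio of 1.06, where 8.51% of all genes were past 1. Its share ratio was 0.89, or 1.09 relative to the median of all genes, and with the GC and length trend taken out its ratio was 0.49. TBCE, an alpha-tubulin cofactor, was the lowest of the list, with 22.2 and 31.7 (-0.49). The 8 subunits of the CCT chaperonin, which folds new tubulin chains, had a median of 0.01 and none past 1. CCT7 was the highest of them, with 370.3 in KD and 218 in CTRL (0.76), and TCP1 the lowest, with 188 and 231 (-0.29). The share ratio of CCT7 was 0.28, or 0.48 relative to the median of all genes. The 6 subunits of prefoldin, which hands chains to CCT, had a median of 0.11, with PFDN2 highest at 142 and 105 (0.44) and VBP1 lowest at 28.8 and 49.9 (-0.77). On count shares VBP1 was past the limit, at -1.02, or -0.81 relative to the median of all genes.

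The 9 genes of the gamma-tubulin ring complex had a median of 0.25, with 6 above 0, 3 below and none past 1. The median was -0.02 on count shares, or 0.19 relative to that of all genes, and -0.13 with the GC and length trend taken out, where 4 were above 0 and 4 below. By FPKM ratio TUBGCP2, a core ring protein, was the highest, with an FPKM of 27.3 in KD and 17.1 in CTRL (0.64). TUBGCP6 was the lowest, with 1.80 and 3.13 (-0.56, and -1.01 with the trend taken out). The share ratio of TUBGCP2 was -0.01, with an interval of -0.20 to 0.17, or 0.19 relative to the median of all genes. The ring components MZT2A and MZT2B had ratios of 0.36 and 0.32 from FPKM. Their share ratios were 0.97 and 1.02, or 1.18 and 1.23 relative to the median of all genes. With the GC and length trend taken out their ratios were -0.56 and -0.62, so the sign depends on the scale. TUBG1, which the ring proteins hold, had an FPKM ratio of 0.14, between those of TUBGCP6 and TUBGCP2.

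Of 23 genes for enzymes that modify tubulin, 15 passed the filter, with a median of -0.15, 5 above 0 and 10 below. A pair of them, both tubulin glutamylases, was lower by at least 1. TTLL4 had an FPKM of 13.6 in KD and 31.3 in CTRL, a log2 ratio of -1.15 and a share ratio of -1.42 with an interval of -1.72 to -1.13. TTLL7, which acts mainly on beta-tubulin, had 0.84 and 3.91, a log2 ratio of -1.42, from 24 and 73 counts. TTLL12 was the highest, with 31.4 and 16.1 (0.92, and 0.43 with the GC and length trend taken out). The count of 2 of 15 stands beside the 3.27% of all genes that were as low.

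Among 22 genes for microtubule-associated and severing proteins, 18 passed, with a median of -0.17. MAP1S, a microtubule-binding protein also linked to autophagy, was far from the rest, with an FPKM of 65.5 in KD and 10.5 in CTRL from 660 and 124 counts. Its log2 ratio was 2.53 and its share ratio 2.18, with an interval of 1.90 to 2.47. At a GC content of 68.0%, its ratio was 1.63 with the GC and length trend taken out. The lowest was MAPRE2, an end-binding protein, with 6.84 and 13.69 (-0.91). TTC5, the factor that recognizes the first residues of nascent alpha- and beta-tubulin, had 4.45 in KD and 5.31 in CTRL. Its log2 ratio was -0.21, from 115 and 134 counts.

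Because the αCP proteins bind C-rich RNA and the study derived a C-rich consensus of 10 positions from the flanks of the cassette exons that were skipped more after αCP depletion, the introns of the tubulin genes were searched for it. In the 250 nt before each splice acceptor, on the transcribed strand, 11 of 37 acceptors of the 10 genes (29.7%) had a match, against 19.0% of 183202 acceptors of protein-coding genes. These windows reach into the preceding exon where the intron is shorter, as at 8 of the 37. Matches were found in 8 of the 10 members and not in TUBA4A or TUBB. The acceptor of exon 3 in TUBA1B and the 2 of TUBB3 that have a match, chosen as examples after their composition was seen, are given as the last 50 nt of the intron in GRCh37, with bases covered by a match in capitals.
TUBA1B exon 3 (chr12:49523174-49523223, minus strand): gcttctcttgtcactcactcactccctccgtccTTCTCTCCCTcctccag
TUBB3 exon 3 (chr16:89999826-89999875, plus strand): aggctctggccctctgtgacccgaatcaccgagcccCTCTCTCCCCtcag
TUBB3 exon 4 (chr16:90001087-90001136, plus strand): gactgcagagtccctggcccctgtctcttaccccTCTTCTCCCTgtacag

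Cytosine made up 50% of these bases in TUBA1B, where the median of all acceptors was 24% and 2.90% of acceptors were as rich. In TUBB3 it was 46% before exon 3, 42% before exon 4 and 38% before exon 2, which has no match. In TUBG1 the acceptor of exon 2 had 50% and matches too, and its log2 ratio was 0.14, while TUBA4A had no match and a ratio of 0.74. The FPKM of a gene does not resolve the use of single exons, and a match of the consensus is a description of these letters only.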

How the data were processed

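RNA of K562 cells transfected with αCP1/2 siRNAs or control siRNAs (3 libraries per group) was made into TruSeq libraries and sequenced by the authors as 100-nt paired-end reads. The authors mapped the reads with TopHat 1.4.1 to hg19 and Ensembl transcripts and deposited, for each gene and group, 1 FPKM value and 1 estimated count from Cuffdiff 2.2.0. How libraries were combined and how reads with several matches were counted are not given in the sources used here. Columns with the authors' fold change, p-value and FDR, and 2 columns of averages, were not used.

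Here log2 ratios of FPKM used a pseudocount of 1, over genes whose FPKM averaged 1 or more, and were called at 1 or -1. The linear model planned for separate libraries needs more than the 1 value per group given. Exact binomial (Clopper-Pearson) 95% intervals of count shares cover counting error only, and counts of 3 or fewer were treated as a floor. The members and lists were chosen with earlier results of these data known. Named were all members, the other tubulin genes, the siRNA targets, and in each pathway list the highest and lowest gene and those past the limit; cell type markers were named after their values were seen. Alternatives were a pseudocount of 0.1, no filter, a filter of 5, count shares (0.5 added for counts over all genes), the same relative to their median (added after seeing the data), centring on the median, subtraction of a quadratic fit on GC and log2 length, and the sum of all rows of a symbol.

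Sequences came from GRCh37 and the Ensembl canonical transcripts of GENCODE release 44. Windows of 100 nt were compared with blastn 2.17.0 (word size 22). Some sequences are not reported here. Functions were tested on simulated data. Scripts used Biopython 1.88, pysam 0.24.0, scipy 1.17.1, pandas 2.3.3, numpy 2.4.6 and matplotlib 3.10.9 under Python 3.11.15.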

Additional observations from a re-analysis of the deposited data

Results flagged for a closer look

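A second row of the table carries the symbol TUBB3 (ENSG00000198211) and was not used in the comparisons. It is the locus of the readthrough transcript that joins the neighbouring melanocortin receptor gene MC1R to TUBB3. It held 24.2 estimated counts in KD and 0.26 in CTRL, with FPKM values of 0.74 and 0.008, and was listed because the KD count lies above the floor of 3 counts and above the control column. Its exons overlap those of TUBB3, so reads of the shared exons cannot be assigned to either from this table. The larger row of TUBB3 held 2755 and 1042 counts, and summing both rows left the log2 ratio at 1.39.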

How the results depend on the processing

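No paired analysis was possible because every gene has a single number for each group; leaving out each library was not run for the same reason. Of the 10 members, 7 kept 1 sign on every scale tried, and TUBB (below 0 on uncentred count shares only), TUBB6 and TUBG1 did not. The 7 include TUBB2B, which did not pass the filter, rests on 2 counts in KD and 6 in CTRL, and has a share interval that holds 0. No value called past the limit changed sign. The number of members higher by 1 was 3, and 1 on count shares, where TUBA1A (0.92) and TUBA1C (0.74) fell short; it was 2 on count shares relative to the median of all genes, an alternative added after seeing the data, and 2 with FPKM ratios centred on their median, both without TUBA1C (0.94 and 0.99), and 2 with the GC and length trend removed, without TUBB3 (0.82). The median of the members was 0.28 on count shares, 0.48 on centred count shares, 0.51 with the trend removed and 0.38 without the filter, that of the alpha genes 0.56, 0.77 and 0.78 on the first 3 of these scales, and that of the beta genes -0.088 on count shares and -0.033 with the trend removed. Over all genes, 1169 were higher and 450 lower by 1; the higher count was 641 with the trend removed, and the lower count was 791 with a pseudocount of 0.1, 1351 on count shares (where 951 were higher), 806 on centred count shares and 237 with a filter of 5. From counts per kilobase, TUBA1B made up 69.2% of alpha in KD and 71.9% in CTRL, and TUBB 53.5% and 55.6% of beta. Of 40 medians of the pathway lists under alternatives, 7 moved. Apart from these constructions, the cause was not tested. With 1 value per column, spread between libraries limits every comparison and is unknown.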
